A study of Mus musculus with 2 samples.

Results

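Macrophages that carried transcripts of Mmp12 were examined in orthotopic RM-1 tumors by droplet-based single-cell RNA sequencing. A cell was counted as an Mmp12 macrophage when its barcode held at least 2000 unique molecular identifiers (UMIs), at most 20% of them mitochondrial, at least 5 UMIs of C1qa, C1qb and C1qc together, at least 3 UMIs of Mmp12, at most 1 UMI of Cd3d, Cd3e and Cd3g together and at most 4 UMIs of Krt8 and Krt18 together. By this rule 449 of 9947 control barcodes and 153 of 8913 barcodes of the ENZ-treated tumor were Mmp12 macrophages, 602 of 18860 in all. The population was therefore not restricted to the control tumor, although most of its cells were found there.

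RM-1 is a mouse prostate cancer cell line, and the tumors were grown in the prostate of C57BL/6 mice labelled WT. The control mouse received vehicle and the other mouse received enzalutamide (ENZ), an inhibitor of the androgen receptor. Each group was 1 tumor of 1 mouse and 1 library, so that treatment, mouse, tumor and library could not be told apart, and no test between the groups was possible. Immune cells had been enriched with an isolation kit and by CD45 staining before the libraries were made, and the share of any cell type therefore does not stand for its share of the tumor. The age of the mice was not given in the sources used here. GEO labels both samples as prostate cancer cells, but the Mmp12 macrophages were defined by C1q, and their keratin and T cell transcripts were limited by the rule.

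MMP12, also called macrophage elastase, is a secreted metalloproteinase that cleaves elastin and other components of the extracellular matrix. Macrophages release it during tissue remodeling, for example in smoke-exposed lung, in atherosclerotic plaques and in tumors. C1q, made of the products of C1qa, C1qb and C1qc, starts the classical complement pathway, and tissue macrophages are its main source. Mgl2 (CD301b) and Clec4n (dectin-2) encode C-type lectins of myeloid cells that bind sugars, galactose-type sugars in the case of Mgl2 and fungal mannans in the case of Clec4n.

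Mmp12 lies at chr9:7344381-7369499 on the plus strand of mm10, next to other metalloproteinase genes, among them Mmp13 at chr9:7272514-7283331. The 100 bases before the starts of 3 genes are shown because they stand before Mmp12 itself and before the metalloproteinase gene and the integrin gene that accompanied it most clearly in the values below, and because each gene has a start with a match to the AP-1 motif, TGANTCA, which reads the same on both strands. RefSeq lists 2 starts of Mmp12, and the match stands before the internal start at 7347374, while the 100 bases before the outer start at 7344397, close to the beginning of the gene span, hold none. The sequences are from RefSeq on GRCm38.p6, plus strand, 5′ to 3′, with the motif in capitals.

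Mmp12, outer start, chr9:7344297-7344396: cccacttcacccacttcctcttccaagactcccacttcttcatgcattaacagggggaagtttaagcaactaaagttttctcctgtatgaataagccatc
Mmp12, internal start, chr9:7347274-7347373: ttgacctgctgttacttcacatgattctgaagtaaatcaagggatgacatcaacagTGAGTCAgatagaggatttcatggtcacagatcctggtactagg
Mmp13, chr9:7272414-7272513: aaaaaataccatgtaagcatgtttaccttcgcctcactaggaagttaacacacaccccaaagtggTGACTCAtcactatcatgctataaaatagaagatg
Itgax, chr7:128129450-128129549: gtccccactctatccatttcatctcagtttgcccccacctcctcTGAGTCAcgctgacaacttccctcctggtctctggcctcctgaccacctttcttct

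Over the 250 bases before a start, 2217 of 32851 RefSeq promoters (6.75%) held the motif, and 2113 of 27025 genes (7.82%) had at least 1 such promoter. Of the 15 top-ranked higher genes described below, ranked by the bound of the ratio's interval nearer to 1, 14 had a promoter in the table. The motif was held by 4 of them (Mmp13, Tnfrsf9, AA467197 and Itgax). Of the 10 genes with the lowest ratios, 6 had a promoter there and none held it.

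Mmp12 was more frequent in C1q-positive macrophages than in monocytes, neutrophils, T cells and keratin-positive cells, but it was not limited to them. A Mmp12 UMI was found in 15.7% of all kept control barcodes and 9.91% of those of the ENZ library. In the control library 449 of 1427 C1q-positive macrophages reached 3 Mmp12 UMIs (31.5%, 95% Clopper-Pearson interval 29.1 to 33.9), 219 held 1 or 2, and 759 held none. In the ENZ library 153 of 748 reached 3 UMIs (20.5%, interval 17.6 to 23.5), 99 held 1 or 2, and 496 held none. The intervals of the shares did not overlap, but they cover counting error only and not the difference between 2 mice. Expressed over all barcodes kept, Mmp12 macrophages were 4.51% of the control and 1.72% of the ENZ library.

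Since Mmp12 chose the cells, its level in them is given as a description. A control member held between 3 and 121 Mmp12 UMIs with a median of 8, and an ENZ member between 3 and 55 with a median of 7. Summed over members, the level was 1031 CPM (UMIs of the gene per 1000000 UMIs of its group, exact Poisson interval 1003 to 1059) in the control tumor and 1169 CPM (1112 to 1228) in the ENZ library, and over all C1q-positive macrophages it was 408 and 290 CPM. The level was uneven among members, and the tenth of cells with the highest per-cell CPM held 34.1% of the summed per-cell level in the control tumor and 33.8% in the ENZ library. At the threshold, 81 control cells and 43 ENZ cells had 2 Mmp12 UMIs and fell outside, and 51 and 29 cells had 3 and fell inside.

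**Figure D1:**
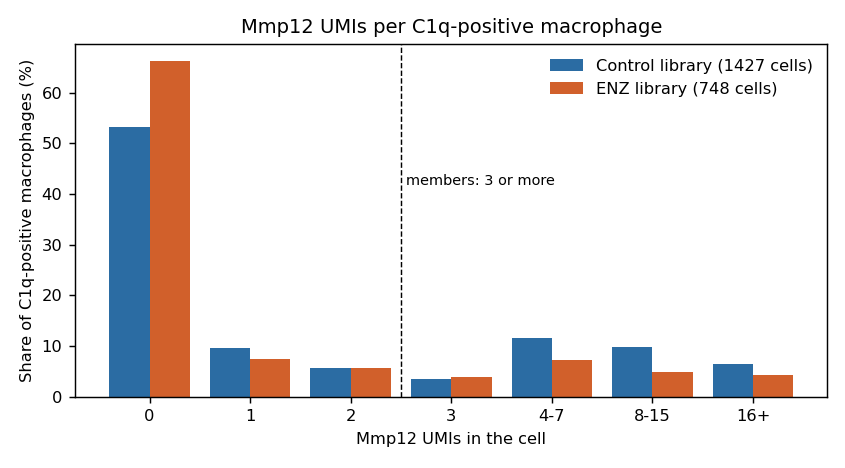
Share of the C1q-positive macrophages of each library (vertical axis, %) by the number of Mmp12 UMIs in the cell (horizontal axis), for 1427 control (blue) and 748 ENZ (orange) cells, with a dashed line at the threshold of 3 UMIs. Cells without Mmp12 were 53.2% of the control and 66.3% of the ENZ cells, and each bar from 4 UMIs on was taller for the control library, while cells with exactly 3 were about as frequent in both.

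Members were deeper than the cells they were compared with. Their median was 9398 UMIs in the control tumor and 8480 in the ENZ library, against 6935 and 6796.5 UMIs in C1q-positive macrophages without Mmp12, and a deeper cell reaches 3 UMIs more easily. With each cell thinned to 2000 UMIs, a Mmp12 UMI was found in 30.6% (28.2 to 33.1) of control and 22.7% (19.8 to 25.9) of ENZ C1q-positive macrophages, against 46.8% and 33.7% before thinning. In T cells, which should lack Mmp12 and had median depths of 4596 and 4966 UMIs, the thinned shares were 2.14% (0.984 to 4.03) and 1.06%, against 4.52% and 1.76% before thinning. Monocytes with Ly6c2 and Chil3 had thinned shares of 2.57% in the control tumor and 5.82% (4.34 to 7.62) in the ENZ library, neutrophils 1.33% and 1.23%, and keratin-positive cells 1.04% and 0.516%. B cells were too few to compare, with 1 of 18 control cells (5.56%, interval 0.141 to 27.3) and 0 of 13 ENZ cells (interval up to 24.7%). The shares in C1q-positive macrophages were above those in monocytes, neutrophils, T cells and keratin-positive cells of the same library, dendritic cells were not measured, and those of monocytes lay above the T cell share in the ENZ library.

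Barcodes with at most 100 UMIs, which hold free RNA, contained Mmp12 at 57.7 CPM in the control tumor and 34.7 CPM in the ENZ library. The members held 59.5% of the Mmp12 UMIs of all kept control barcodes and 45.3% of those of the ENZ library. Of the cells with at least 3 Mmp12 UMIs, 449 of 726 control cells and 153 of 312 ENZ cells were members, that is, most of them in controls but not under ENZ. The others were 207 control and 146 ENZ cells that had under 5 UMIs of C1q, and 70 and 13 that had enough C1q but too many Cd3 or keratin UMIs. None of the members shared a barcode between the libraries, and 27 barcodes were shared among all those kept. Scrublet gave a score above 0.25 to 5 of 449 control members and 0 of 153 ENZ members, and these cells were kept. More members lay in clusters led by genes of other cell types, as given below.

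Genes were compared between Mmp12 macrophages and the C1q-positive macrophages without Mmp12 of the same library, 759 control and 496 ENZ cells, on CPM of UMIs summed over cells. The rule used Mmp12 in this contrast, so the ratios describe what accompanied it, and their 95% intervals, from the exact conditional binomial distribution, cover counting error of 1 library only. Genes with at least 50 CPM in either group were measured. In the control library 14 of 3276 genes (0.427%) had a ratio of at least 2 and 36 (1.1%) a ratio of 0.5 or less, 45.4% lay above 1 and 54.6% below, and the median ratio was 0.984. In the ENZ library 23 of 3543 genes (0.649%) had a ratio of at least 2 and 27 (0.762%) a ratio of 0.5 or less, 44.3% lay above 1 and 55.7% below, and the median was 0.977. Of the 14 higher genes of the control library, 7 also had a ratio of at least 2 among the 23 of the ENZ library (Ear2, Mmp13, Tnfrsf9, Tnip3, AA467197, Pgf and Itgax), which is 50% of the former and 30.4% of the latter, and all 14 lay above 1 there. Of the 14 genes, 9 reached 50 CPM in the ENZ library, and Dcstamp, H2-DMb2 and Areg, which did not, also had ratios of at least 2 there. Of the 36 lower genes, 26 were measured in the other library, and 11 were also among the 27 of the other library (30.6% and 40.7%), among them Folr2, Gas6, Ccl8, Stab1 and Selenop. Over the 3121 genes measured in both libraries, 66.2% lay on the same side of 1. Against the 529 control comparison cells that also held a UMI of the macrophage gene Mrc1, 15 of 3319 genes (0.452%) had a ratio of at least 2 and 56 (1.69%) of 0.5 or less.

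The genes with the highest ratios included a cell fusion protein, a ribonuclease and a second metalloproteinase. Dcstamp, needed for the fusion of macrophages into osteoclasts and giant cells, stood at 54.7 against 11.7 CPM in the control library, a ratio of 4.66 (3.59 to 6.14), and at 30.7 against 6.30 CPM in the ENZ-treated tumor, a ratio of 4.87 (2.88 to 8.41). Osteoclast markers, Dcstamp among them, summed to 304 against 311 CPM in the control library, where Dcstamp itself was the 1 higher of 3 measured genes. In the ENZ library they summed to 346 against 269 CPM, with 2 of 2 measured genes higher. Calcr and Oscar had no UMI in the members of either library. Ear2, an eosinophil-associated ribonuclease also made by macrophages, stood at 76.7 against 22.2 CPM in the control, a ratio of 3.46 (2.84 to 4.24), and at 156 against 24.4 CPM in the ENZ-treated tumor, a ratio of 6.41 (5.0 to 8.26). Its close paralogs could share reads with it, which makes the value uncertain. Mmp13, collagenase 3, stood at 206 against 69.9 CPM in the control (2.95, 2.63 to 3.31) and 207 against 99.8 CPM in the ENZ library (2.07, 1.77 to 2.42). Between the members of the ENZ and control library the ratio of Mmp13 was 1.0 (0.876 to 1.15), and the comparison cells carried more of it in the ENZ library.

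Among receptors and adhesion molecules, Tnfrsf9 (4-1BB, a costimulatory receptor) stood at 59.9 against 20.7 CPM in the control tumor and 70.2 against 21.3 CPM in the ENZ library, ratios of 2.90 (2.35 to 3.59) and 3.30 (2.43 to 4.49). Itgax, the integrin CD11c of dendritic cells and tissue macrophages, stood at 114 against 53.9 and 99.4 against 44.6 CPM, ratios of 2.11 (1.84 to 2.42) and 2.23 (1.76 to 2.81). Between the members of the ENZ and control library the ratio of Tnfrsf9 was 1.17 (0.921 to 1.48) and that of Itgax 0.873 (0.719 to 1.06). Ramp3, a partner of the adrenomedullin receptor, stood at 52.3 against 21.2 CPM in the control (2.47) and at 24.9 against 16.3 CPM in the ENZ library, where the ratio of 1.53 had an interval from 0.974 to 2.36. H2-DMb2, a chaperone of MHC class II loading, had ratios of 2.57 (2.08 to 3.19) and 3.53 (2.34 to 5.33). Its neighbour H2-DMb1 could share reads with it, which was not tested.

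Secreted factors and regulators made up most of the others. Pgf, placental growth factor, an angiogenic ligand, stood at 134.5 against 59.0 CPM in the control library (2.28, 2.0 to 2.60) and 69.4 against 33.6 CPM in the ENZ library (2.07, 1.57 to 2.72). Areg, the EGF receptor ligand amphiregulin, stood at 122 against 47.2 CPM (2.59, 2.25 to 2.99) and 48.2 against 20 CPM (2.42, 1.71 to 3.41). The ratios were alike while the levels of both ligands were lower in either group of ENZ cells. Tnip3, an inhibitor of NF-kB signaling, had ratios of 2.80 and 2.37, and AA467197, a small mitochondrial protein also known as NMES1, ratios of 2.44 and 2.34. Phlpp1, a phosphatase of AKT, stood at 677 against 342 CPM in the control tumor and 414 against 211 CPM in the ENZ library, ratios of 1.98 (1.87 to 2.09) and 1.96 (1.76 to 2.19). Tmtc2 and Phldb1 had ratios of 2.08 and 2.05 in the control library and of 1.27 and 1.33 in the ENZ library, where the interval of Phldb1 (0.980 to 1.79) included 1. No more than 7.33% of the members' UMIs of any of the 14 higher control genes came from 1 cell. Some were still uneven among cells. A Dcstamp UMI was found in 24.1% and an Areg UMI in 28.3% of control members. The tenth of control members with the highest per-cell CPM held 77.1% of the summed per-cell level of Dcstamp and 78.6% of that of Areg, against 36.3% for Itgax.

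**Figure D2:**
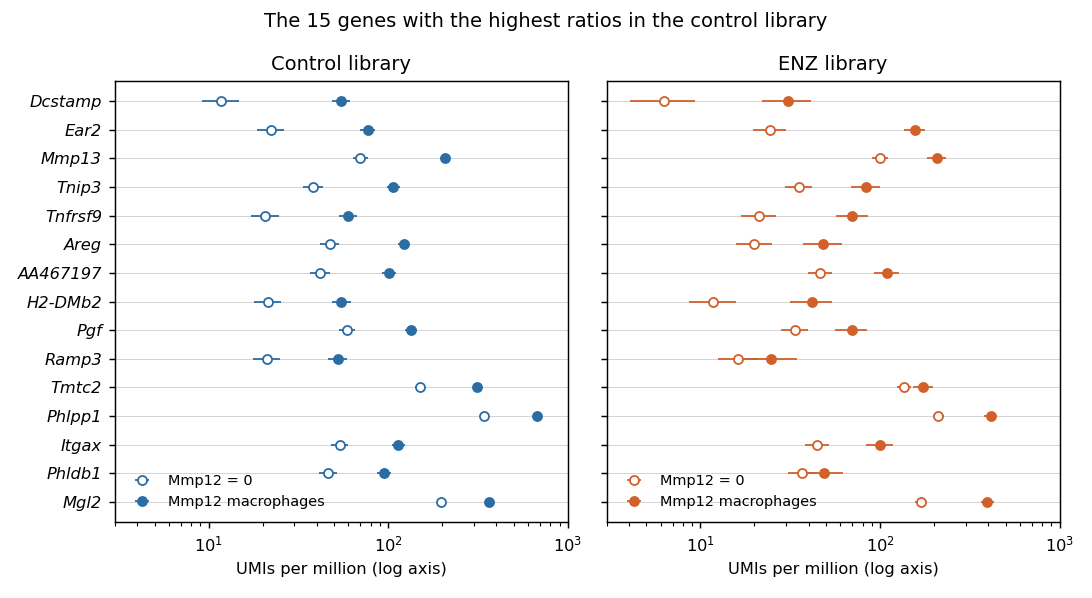
Levels in CPM (logarithmic horizontal axis) of the 15 top-ranked higher genes of the control library, in Mmp12 macrophages (filled) and C1q-positive macrophages without Mmp12 (open), with 95% Poisson intervals. Genes were ranked by the bound of the ratio's interval nearer to 1. Each filled point lay to the right of its open point in both libraries, with ratios up to 4.66 for Dcstamp in the control library and, in the ENZ library, from 1.27 for Tmtc2 to 6.41 for Ear2.

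Of the remaining marker genes of the population, Mgl2 separated the groups more than Clec4n. Mgl2, which lies at chr11:70130329-70137550 and was the fifteenth of the higher genes, stood at 366 against 197 CPM in the control library, a ratio of 1.86 (1.73 to 2.0), and at 396 against 169 CPM in the ENZ-treated tumor, a ratio of 2.34 (2.08 to 2.63). A Mgl2 UMI was found in 77.3% of control members and 43.9% of comparison cells, and with cells thinned to 2000 UMIs in 44.3% (39.7 to 49.1) and 24.5% (21.5 to 27.7). T cells had a thinned share of 1.67%. Clec4n, at chr6:123229843-123247021, stood at 400 against 356 CPM (1.12, 1.06 to 1.19) and at 353 against 287 CPM (1.23, 1.10 to 1.37), so that it differed little between C1q-positive macrophages with and without Mmp12. Nor was it limited to C1q-positive macrophages. In thinned control cells a Clec4n UMI was found in 52.3% of members, 45.5% of comparison cells, 26.5% of monocytes, 18.6% of neutrophils and 3.33% of T cells. C1qb, which the rule used in both groups, had ratios of 0.942 and 0.915. Of the C-type lectin list, 2 of 9 measured were higher in the control library (median 0.818) and 6 of 12 in the ENZ library (median 0.991), and Clec4d, a partner of the dectin family, had a ratio of 0.744 in the control tumor and 1.21 in the ENZ library.

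In the ENZ library, Klrb1b, an inhibitory lectin-like receptor known from NK cells, had the highest ratio of the measured genes apart from Mmp12, and this gene and the next pair were chosen after their values were seen. Klrb1b stood at 72.4 against 6.30 CPM, a ratio of 11.5 (7.29 to 18.8), and in the control library, where it stayed below 50 CPM, at 46.7 against 14.2 CPM, a ratio of 3.29 (2.56 to 4.26). The NK cell markers, led by Klrb1c, summed to 15.3 CPM in the same ENZ members and 17.9 CPM in the comparison cells, with Ncr1 at 0. F7, coagulation factor VII, stood at 92.1 against 22.1 CPM (4.18, 3.14 to 5.57) in the ENZ and 33.5 against 11.2 CPM (2.98) in the control library. Pdcd1lg2, the checkpoint ligand PD-L2, stood at 62.1 against 13.4 CPM (4.64, 3.24 to 6.70) in the ENZ and 21.6 against 12.7 CPM (1.70) in the control library.

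Among the 10 lowest ratios of the control library were a pair of monocyte genes, and most of the others were genes of other cell types. Ly6c2, a surface protein of inflammatory monocytes, stood at 19.4 against 64.8 CPM, a ratio of 0.300 (0.238 to 0.375), and Chil3, a chitinase-like protein of monocytes and alternatively activated macrophages, at 40.1 against 119 CPM, a ratio of 0.338 (0.288 to 0.396). In the ENZ library the ratios of Ly6c2 and Chil3 were 0.574 (0.433 to 0.752) and 0.537 (0.481 to 0.600). Of the whole monocyte list, 6 of 9 measured genes were lower and 3 higher in the control library (median 0.565, 4 genes at 0.5 or less), and 5 of 8 were lower in the ENZ library (median 0.752, none at 0.5 or less). Most of the other 8 of the 10 lowest genes rested on few comparison cells. Of the comparison UMIs, 1 cell gave 99.7% for Cfd, 99.5% for Car3, 96.6% for Scd1, 80.3% for Fabp4 and 67.8% for Hp, which are genes of fat cells and, for Hp, of liver and neutrophils, and 47.7% of those of the collagen gene Col1a2 came from 1 cell. Mcpt4 and Cma1, proteases of mast cells, stood at 1.0 against 71.5 and 1.0 against 62.4 CPM. When cells of 3 clusters led by genes of other cell types were left out, Cfd, Car3 and Cma1 had 4 UMIs or fewer in either group, Fabp4 had a ratio of 0.798 (0.404 to 1.54) and Col1a2 one of 0.974 (0.638 to 1.48), and Scd1 one of 2.61 (1.14 to 6.5). Mcpt4 had 2 UMIs in members and 7 in comparison cells, and its ratio of 0.335 had an interval from 0.0340 to 1.76. Ly6c2 stayed at 0.262, Chil3 at 0.344 and Hp at 0.467 (0.365 to 0.593), and Hp was also at 0.415 without its highest cell. Of the 36 lower genes, 27 remained at 0.5 or less without these clusters, and 13 of the 14 higher genes remained at 2 or more.

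Lists of genes by function were read against the median of all measured genes, 0.984 in the control tumor and 0.977 in the ENZ library. The rRNA-like list, genes that may collect ribosomal RNA, was lower in 9 of 9 genes of the control library (median 0.814, sums of 32495 against 39662 CPM) and in 8 of 9 of the ENZ library (median 0.932, 91486 against 96366 CPM). Its part in the other ratios was not tested. Genes of resident and perivascular macrophages were lower in 9 of 9 measured in either library, with medians of 0.427 and 0.469. Selenop, a selenium carrier, stood at 279 against 668 CPM in the control tumor and 303 against 675 CPM in the ENZ library, ratios of 0.418 (0.393 to 0.445) and 0.449 (0.403 to 0.498). Ccl8, a chemokine of perivascular macrophages, stood at 109 against 287 CPM and 147 against 382 CPM, ratios of 0.378 and 0.385, and 14% and 20.9% of the members' UMIs came from 1 cell. Maf, a transcription factor of resident macrophages, had ratios of 0.496 (0.465 to 0.529) and 0.604 (0.547 to 0.666), the folate receptor Folr2 ratios of 0.381 and 0.469 and the scavenger receptor Stab1 ratios of 0.427 and 0.382. General macrophage markers other than C1q went the same way in 9 of 9 genes, with medians of 0.818 and 0.902. Apoe, a lipid carrier, stood at 4778 against 7839 CPM and 2854 against 4517 CPM (0.609 and 0.632), Adgre1, which encodes F4/80, had ratios of 0.652 and 0.602, and the mannose receptor Mrc1 ratios of 0.818 and 0.805.

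MHC class II genes, whose products present antigen to CD4+ T cells, were higher in 7 of 8 measured in either library, with medians of 1.37 and 1.74. The invariant chain gene Cd74 stood at 8306 against 6113 CPM in the control (1.36, 1.34 to 1.38) and 5500 against 3145 CPM in the ENZ library (1.75, 1.70 to 1.80). H2-Eb1 had ratios of 1.45 and 1.98 and H2-Aa of 1.39 and 1.85, and the costimulatory gene Cd86, the exception, 0.981 and 0.944. Markers of conventional dendritic cells of type 1, which are also rich in MHC class II, were lower in 3 of 4 measured genes of either library. Those of type 2 summed to 182 against 128 CPM in the control and 142 against 123 CPM in the ENZ-treated tumor, led by Tnip3, the gene of the list that reached 50 CPM in the control library, while Clec10a was lower in both. The mature dendritic cell markers summed to 71.1 CPM in members and 69.7 CPM in comparison cells of the control library with none at 50 CPM.

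Hypoxia and glycolysis genes were higher in 16 of 16 measured in either library, with medians of 1.22 and 1.23. Ndrg1, a hypoxia-induced gene, stood at 166 against 91.5 CPM in the control tumor and 201 against 134 CPM in the ENZ library, ratios of 1.81 (1.62 to 2.02) and 1.5 (1.29 to 1.74). Gapdh, a glycolytic enzyme, stood at 2434 against 1960 CPM (1.24, 1.21 to 1.27) and 2051 against 1740 CPM (1.18, 1.13 to 1.23). The angiogenic factor Vegfa had ratios of 1.19 and 1.6, the mitophagy receptor Bnip3 1.34 and 1.59, and the oxidoreductase Ero1l 1.18 and 1.68. For Slc2a1, the glucose transporter, the intervals of 0.949 to 1.20 and 0.945 to 1.34 included 1. Iron, heme and oxidative stress genes were higher in 10 of 12 measured in the control library and 7 of 13 in the ENZ library, with medians of 1.17 and 1.08. Ferritin heavy chain, Fth1, had ratios of 1.28 and 1.16 and the metallothionein Mt1 1.29 and 1.5. Slc7a11, a cystine transporter, stood at 347 against 175 CPM in the ENZ library (1.98) and had a ratio of 1.15 in the control library, and the iron exporter Slc40a1 stood at 11 against 57.2 CPM in the ENZ library.

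**Figure D3:**
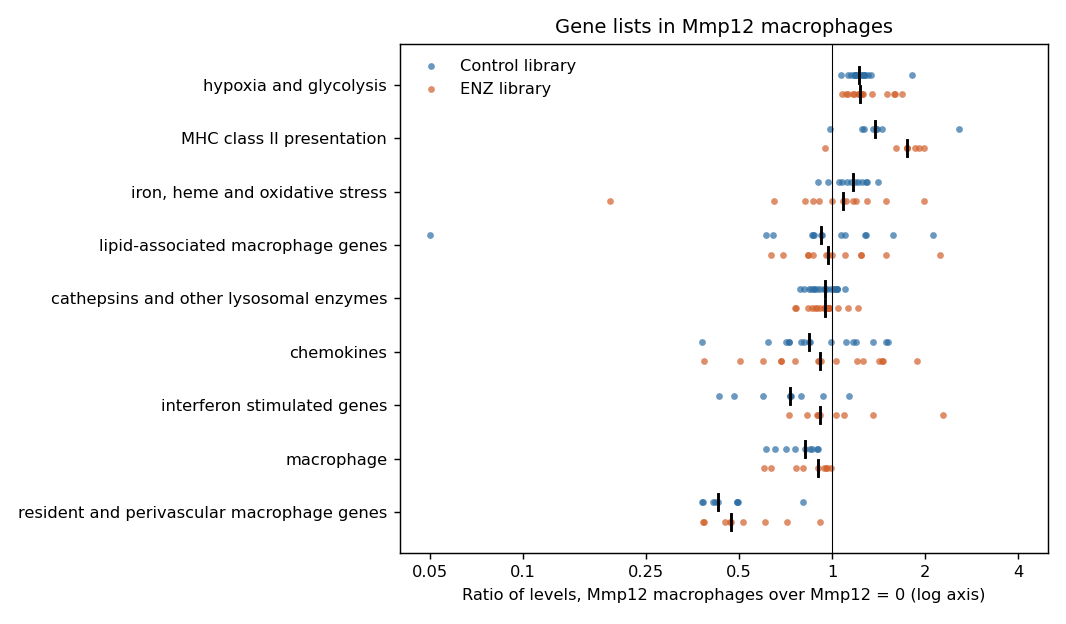
Ratio of levels, Mmp12 macrophages over C1q-positive macrophages without Mmp12 (logarithmic horizontal axis), for each measured gene of 9 lists in the control (blue) and ENZ (orange) library, with the list median as a black bar. Hypoxia and glycolysis genes all lay to the right of 1 and resident and perivascular genes all to the left, while the chemokine and lysosomal lists straddled 1.

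Metalloproteinase and inhibitor genes other than Mmp12 were higher in 3 of 6 measured in the control library (median 1.17) and in 5 of 6 in the ENZ library (median 1.15). Beside Mmp13, Mmp19 had ratios of 1.39 (1.21 to 1.59) and 1.26 (1.03 to 1.53) and the sheddase Adam8 of 1.45 and 1.45. The inhibitor Timp2 stood at 109 against 160 CPM in the control library, a ratio of 0.681 (0.612 to 0.757), and had a ratio of 0.816 in the ENZ library. Among plasminogen and coagulation genes 5 of 10 were higher in the control library and 6 of 11 in the ENZ library. Serpinb2, plasminogen activator inhibitor 2, had ratios of 1.5 and 1.73, coagulation factor X (F10) of 1.30 and 1.57, and F13a1 of 0.491 and 0.712. Lysosomal enzymes were lower in 12 of 18 measured in the control library (median 0.946) and in 15 of 18 in the ENZ library (median 0.951). Lysozyme (Lyz2) had ratios of 0.891 and 0.937, cathepsin B (Ctsb) of 0.856 and 0.834 and cathepsin S (Ctss) of 1.01 and 1.04.

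Of the chemokines, 6 of 16 were higher in the control library and 7 of 16 in the ENZ library, with medians of 0.844 and 0.911. Cxcl2, a neutrophil attractant, stood at 3009 against 1985 CPM in the control (1.52, 1.48 to 1.55) and 2746 against 1885 CPM in the ENZ library (1.46, 1.40 to 1.52), and Ccl6 had ratios of 1.35 and 1.42. The monocyte attractants Ccl2, Ccl7 and Ccl12 had ratios of 0.807, 0.619 and 0.711 in the control tumor and of 0.684, 0.598 and 0.502 in the ENZ library. Inflammatory genes did not share a direction, with 5 of 11 higher in either library and medians of 0.981 and 0.95, although Il1b stood at 2741 against 2182 CPM (1.26) and 2004 against 1338 CPM (1.5). Its antagonist Il1rn had ratios of 1.51 (1.40 to 1.62) and 1.38 (1.23 to 1.55). Of alternative activation genes, 4 of 7 were higher in the control library and 5 of 10 in the ENZ library. Clec10a, the close paralog of Mgl2, had ratios of 0.681 and 0.638.

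Lipid-associated macrophage genes were lower in 8 of 14 measured in the control library (median 0.922) and in 7 of 13 in the ENZ library (median 0.969). Among the higher ones besides Itgax, the tetraspanin Cd9 had ratios of 1.57 (1.45 to 1.70) and 1.49 (1.27 to 1.76), galectin 3 (Lgals3) of 1.28 and 1.24 and osteopontin (Spp1) of 1.28 and 1.24, while for the lipid receptor Trem2 the intervals of 0.818 to 1.03 and 0.673 to 1.03 included 1. Of the colony stimulation list, 6 of 12 measured were higher in the control library (median 1.05) and 8 of 10 in the ENZ library (median 1.10). The higher genes included receptors for GM-CSF, with Csf2rb at 1.27 and 1.43 and Csf2ra at 1.19 and 1.24, and the M-CSF receptor Csf1r had ratios of 0.858 and 0.953. Bhlhe40, a transcription factor downstream of GM-CSF, had ratios of 1.36 and 1.61. Interferon stimulated genes were lower in 8 of 9 measured in the control library (median 0.730), with Irf7 at 0.483 and Ly6a at 0.429, and in 5 of 9 in the ENZ library (median 0.915), where Rsad2 had a ratio of 2.28 with 20.7% of its members' UMIs in 1 cell. Complement genes outside the rule had medians of 0.856 and 0.970, chemokine receptors of 0.917 and 1.08 and checkpoint genes of 0.996 and 1.10. The chemokine receptor Cx3cr1 had ratios of 0.464 and 0.545, and Ccr2, the receptor of inflammatory monocytes, 1.0 and 1.58. Immediate early and heat shock genes were divided, 8 higher and 7 lower in each library. Hspa1a, a heat shock protein, had ratios of 1.19 and 1.05, and Fos, an immediate early transcription factor, 0.661 and 0.824. Of the cell cycle list, 3 genes reached 50 CPM in the control library, with ratios of 1.26 for Top2a, 1.23 for Stmn1 and 0.973 for Tubb5.

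Markers of other cells were read from their summed level in members and comparison cells. Fibroblast markers, led by Col3a1, summed to 197 against 459 CPM in the control tumor and 78.2 against 182 CPM in the ENZ library. In the control library 1 cell gave 50.1% of the comparison UMIs of Col3a1. Its control ratio was 0.381, and 1.04 without the 3 clusters. Mast cell and basophil markers, led by Hdc, summed to 51.5 against 237 CPM in the control library with Ms4a2 and Fcer1a at 0 in members, and to 30.7 against 24.9 CPM in the ENZ library. Neutrophil markers, led by S100a9, summed to 779 against 1463 CPM in the control library, with Camp and Ngp at 0 in members, and to 813 against 569 CPM in the ENZ library, with Camp and Ly6g at 0. Alveolar macrophage markers, led in members by Chil3 with Ear1 and Krt79 at 0, summed to 84 against 366 CPM in the control and 333 against 596 CPM in the ENZ-treated tumor. They include Fabp4, which had 80.3% of its control comparison UMIs in 1 cell and a control ratio of 0.798 without the 3 clusters. B cell markers summed to 18.6 against 62.9 CPM in the control and 13.9 against 17.3 CPM in the ENZ-treated tumor, and T cell markers to 23.4 against 30.3 and 15.3 against 22.3 CPM. Endothelial markers summed to 67.3 against 86.2 and 87.7 against 90.1 CPM, NK cell markers to 51.5 against 70.7 CPM in the control library, and epithelial markers to 50.5 against 41.7 and 74.6 against 76.9 CPM, with Cldn4 and Cldn7 at 0 in the members of both. The rule limited Cd3d, Cd3e and Cd3g of the T cell list and Krt8 and Krt18 of the epithelial list in both groups, so that these sums are partly set by it. Of the defining genes, Cd8a, Pax5 and Cldn5 were also at 0 in the members of both libraries. The part of these cells in the ratios was not tested beyond the values given without the 3 clusters.

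Several genes also differed in level with the number of Mmp12 UMIs among the members, given as a description since the rule used that number. In the control library Mgl2 stood at 197, 169 and 237 CPM in cells with 0, 1 and 2 Mmp12 UMIs, at 274 and 271 CPM in those with 3 and with 4 to 7, and at 463 and 423 CPM in those with 8 to 15 and with 16 or more. Dcstamp stood at 11.7 CPM without Mmp12 and at 76.9 CPM in cells with 16 UMIs or more, and Ear2 at 22.2 and 101 CPM. In the ENZ library Ear2 stood at 24.4 CPM without Mmp12 and at 321 CPM in the 32 cells with 16 UMIs or more. Other genes stood lower in control cells with 16 UMIs or more than in those without Mmp12. Selenop stood at 164 against 668 CPM, Maf at 194 against 531 CPM and Apoe at 3253 against 7839 CPM. The fall was not steady between these ends. In control cells with 1 and 2 Mmp12 UMIs, Selenop stood at 364 and 419 CPM, Maf at 322 and 420 CPM and Apoe at 4948 and 6548 CPM. The rise was not steady for every gene either. Mmp13 stood at 246 CPM in control cells with 8 to 15 Mmp12 UMIs and at 187 CPM in those with 16 or more. Mgl2 also stood somewhat lower in the latter group, as given above. In the ENZ library Mgl2 stood at 169 CPM without Mmp12 and at 480 CPM in cells with 3 Mmp12 UMIs. It stood at 262 CPM with 4 to 7, 416 CPM with 8 to 15 and 499 CPM with 16 or more, so that it did not rise steadily among the ENZ members. The median depth was 6935 UMIs in control cells without Mmp12, 8567 in those with 3 and 10440 in those with 16 or more, and its part in the levels was not tested.

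**Figure D4:**
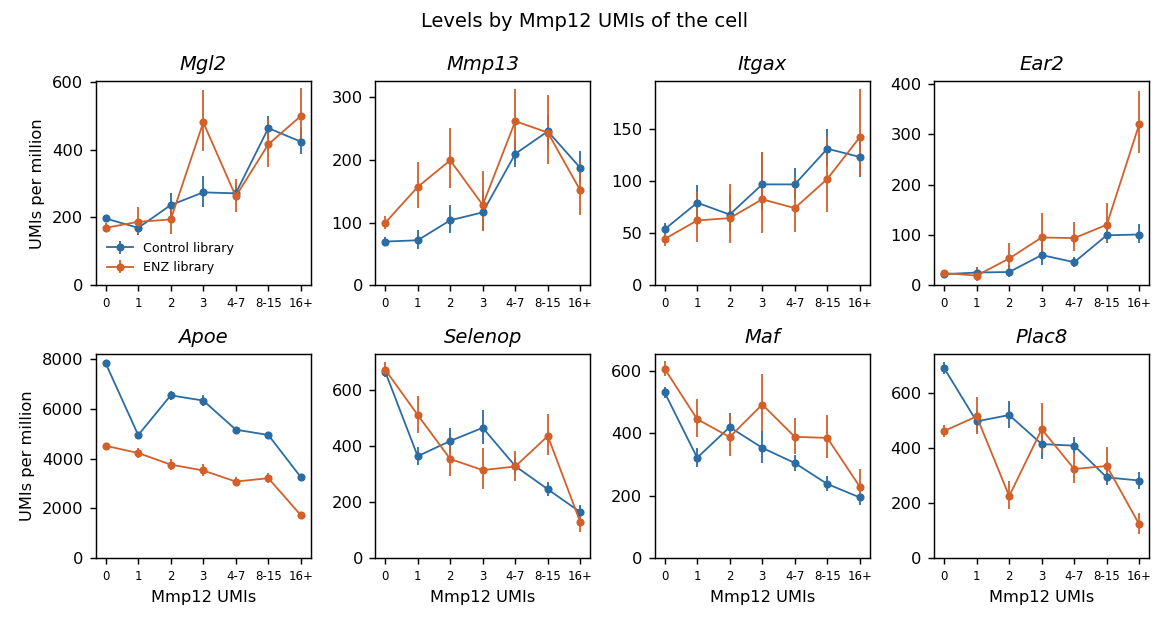
Levels in CPM (vertical axes) of 8 genes in C1q-positive macrophages grouped by their Mmp12 UMIs (horizontal axes), in the control (blue) and ENZ (orange) library, with 95% Poisson intervals. Mgl2, Itgax and Ear2 stood higher in the groups with most Mmp12 than in cells without it, and Apoe, Selenop, Maf and Plac8 lower. Mgl2 did not rise steadily among the ENZ members, with 480 CPM at 3 Mmp12 UMIs and 262 CPM at 4 to 7.

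C1q-positive macrophages of both libraries were clustered without the genes of the rule, which gave 9 clusters. Members were found in every cluster of the control library and in 8 of the 9 of the ENZ library. Cluster 1, led by genes that included Pgf, Phlpp1, Ramp3 and Areg, held 534 control and 80 ENZ cells, and contained 55.5% of the control members but 14.4% of the ENZ members. Members made up 46.6% (42.3 to 51.0) of its control and 27.5% (18.1 to 38.6) of its ENZ cells. Cluster 2, led by Saa3 and the monocyte genes Chil3 and Ly6c2, contained 13.1% of the control and 30.7% of the ENZ members, and members were 17.6% and 17.4% of its cells. Cluster 4, whose leading genes included the MHC class II regulator Ciita, Ccr2 and Ear2, contained 5.12% of the control and 29.4% of the ENZ members, and 26.7% (17.8 to 37.4) and 35.4% (27.2 to 44.4) of its cells were members. Apart from cluster 3, which held no ENZ member, members were least frequent in cluster 7, at 14.4% of its control and 11% of its ENZ cells, a cluster led by the perivascular genes Cd209f, Cd163, Lyve1 and Ccl8. Clusters 3, 6 and 9 were led by genes of stromal and fat cells, of neutrophils and of mast cells, and cluster 5 by histone genes, while the leading genes of cluster 8 belonged to none of the lists. Since these genes defined the clusters, their levels are no result, and with 1 library per group a cluster that held mostly 1 library could reflect that library.

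**Figure D5:**
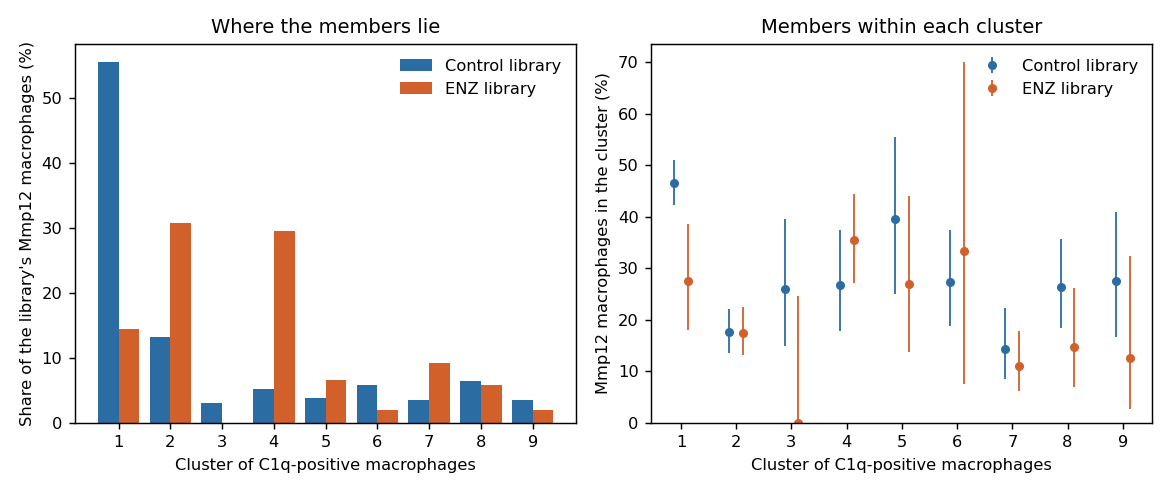
Left, share of each library's Mmp12 macrophages (vertical axis, %) in each of 9 clusters of C1q-positive macrophages. Right, share of the cells of each cluster that were Mmp12 macrophages (vertical axis, %), with 95% Clopper-Pearson intervals. The control members were gathered in cluster 1 (55.5%) and the ENZ members were spread over clusters 2 (30.7%) and 4 (29.4%).

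The levels in members were then set side by side between the libraries, next to those in cells without Mmp12. Between ENZ and control members, 60 of 3426 measured genes (1.75%) had a ratio of at least 2 and 33 (0.963%) of 0.5 or less, 59% lay above 1 and 41% below, and the median was 1.06. C1q-positive macrophages without Mmp12 had a median of 1.07, with 22 of 3537 genes (0.622%) at 2 or more and 28 (0.792%) at 0.5 or less. Saa3, an acute-phase protein, stood at 66.5 CPM in ENZ and 3.21 CPM in control members, a ratio of 20.7 (12.1 to 37.8), and at 466 and 5.54 CPM in cells without Mmp12. Chil3 stood at 281 and 40.1 CPM in members, a ratio of 7.0 (5.89 to 8.35), and at 522 and 119 CPM in cells without Mmp12. Ccl24, an eosinophil attractant of alternatively activated macrophages, stood at 995 and 238 CPM in members (4.18) and at 1101 and 215 CPM in cells without Mmp12 (5.13). Each of these differences between libraries was therefore also present in the cells without Mmp12. Cdk8 (4.34 in members, 3.44 without Mmp12) belongs to the rRNA-like list, which summed to 91486 CPM in ENZ and 32495 CPM in control members. Gys1, the fifth of the higher genes, had 69.4% of its ENZ UMIs in 1 cell.

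Alternative activation genes were higher in ENZ members in 9 of 9 measured, with a median of 2.04 beside the background of 1.06. The list summed to 4143 CPM in ENZ and 1782 CPM in control members. In cells without Mmp12 it summed to 4126 and 1655 CPM, so that the difference was not particular to members. Mrc1 stood at 973 and 507 CPM in members (1.92) and 1209 and 620 CPM without Mmp12 (1.95). Mgl2, of the same list, was at 396 and 366 CPM in members (1.08, 0.982 to 1.19). MHC class II genes went the other way in 7 of 9, with a median of 0.744, and Cd74 stood at 5500 and 8306 CPM in members (0.662) and at 3145 and 6113 CPM in cells without Mmp12 (0.515). Resident and perivascular genes were higher in ENZ members in 7 of 7 measured (median 1.39). They summed to 1987 and 1345 CPM in members and to 3407 and 2707 CPM in cells without Mmp12. In members, fibronectin (Fn1) stood at 930 against 416 CPM (2.23, 2.08 to 2.40) and the checkpoint ligand Cd274 (PD-L1) at 222 against 111 CPM (1.99, 1.73 to 2.30). The whole checkpoint list summed to 3959 and 2706 CPM in members and to 3551 and 2621 CPM in cells without Mmp12. Of the lowest genes, Ccdc162 stood at 412 and 1004 CPM in members (0.410, 0.376 to 0.448) and at 403 and 634 CPM without Mmp12, and Fhad1 at 14.6 and 50.1 CPM. For Col1a1, Gzmc and Sparc, genes of fibroblasts and lymphocytes, 55.4%, 73.1% and 17.1% of the control members' UMIs came from 1 cell.

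Against monocytes with Ly6c2 and Chil3 and at most 1 UMI of C1q, 389 cells of the control library, 161 of 3292 genes (4.89%) had a ratio of at least 2 in control members and 109 (3.31%) of 0.5 or less, while 44.8% lay above 1 and 55.2% below. MHC class II genes were higher in 8 of 8 measured with a median of 3.8, chemokines in 15 of 16 with 1.63, lysosomal enzymes in 17 of 18 with 1.42 and resident and perivascular genes in 5 of 6 with 2.82. Interferon stimulated genes were lower in 9 of 10, with a median of 0.559. Monocyte markers were lower in 10 of 10, among them Ly6c2 and Chil3, which had chosen the monocytes. The C1q limits also set the groups apart, so a difference between macrophages and monocytes was built into the choice. MHC class II genes summed to 19699 CPM in control members, 14429 CPM in C1q-positive macrophages without Mmp12 and 4924 CPM in monocytes. Resident and perivascular genes summed to 1345, 2707 and 695 CPM in the same order. Both lists thus stood above monocytes in cells without Mmp12 as well.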

How the data were processed

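Deposited by the authors were unnormalized UMI counts of 32285 genes over every barcode of 1 control and 1 ENZ library (170830346 and 162030149 UMIs). The submitters' processing notes name Cell Ranger 2.1.1 and mm10, and the file header names Cell Ranger 7.2.0. Which version made the files, and whether intronic reads were counted, is not given in the sources used here. Gene positions were taken from GENCODE M21, which held 32158 of the identifiers.

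Mmp12 macrophages were selected by the thresholds given in the report. The other cells had the same depth and mitochondrial limits and at most 1 C1q UMI. Monocytes had at least 5 UMIs of Ly6c2 and Chil3, at most 20 of S100a8 and S100a9, and the Cd3 and keratin limits of the members. Neutrophils had at least 50 of S100a8 and S100a9 and 5 of Csf3r, Cxcr2 and Retnlg. T cells had at least 3 of Cd3 and at most 4 of keratin, and keratin-positive cells at least 10 of keratin and at most 1 of Cd3. UMIs were summed per group and library, and CPM, Poisson, conditional binomial and Clopper-Pearson intervals at 95% were computed with Python 3.11.15, NumPy 2.4.6, pandas 2.3.3 and SciPy 1.17.1. Free RNA gives counts that no interval covers. Clusters were computed with scanpy 1.11.5 and Scrublet scores with its built-in version. Doublets were not removed, and leaving them out was an alternative. The members and gene lists were chosen with earlier results of these data known. Named genes were the 15 highest and 10 lowest control ratios and the 5 highest and 5 lowest between libraries, ranked by the interval bound nearer to 1 among genes with at least 50 CPM, and the extreme and most abundant members of each list. Leaving out the cell with most UMIs, cells without Mrc1 or clusters 3, 6 and 9 were alternatives chosen after seeing the data. The ratio procedure was run on simulated counts of 3223 genes from the control library's means, where 95.3% of intervals held the true ratio. These counts were Poisson draws of group totals, the model that the intervals assume, without variation between cells. The run therefore checks the computation and cannot show how often the intervals hold in the real counts, which were uneven among cells. Some genes of the lists are not reported here by name.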

Additional observations from a re-analysis of the deposited data

Results flagged for a closer look

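Among 219 listed genes with at least 50 CPM in both libraries, 4 had ratios (Mmp12 macrophages over C1q-positive macrophages without Mmp12) of 0.8 or less in one library and of at least the inverse of 0.8 in the other, with both counting intervals clear of 1. The difference itself was not tested, since each library is 1 mouse.

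The calprotectin genes S100a8 and S100a9, abundant in neutrophils, had ratios of 0.541 and 0.478 in controls and 1.59 and 1.78 in the ENZ library. Without the cells of clusters 3, 6 and 9 the ratios were 0.508 and 0.509 in controls and 1.62 and 2.07 in the ENZ library, on opposite sides of 1 also without the neutrophil-led cluster. In the ENZ members 28.0% of S100a8 and 25.3% of S100a9 UMIs came from 1 cell. Hmox1, heme oxygenase 1, had ratios of 1.40 in controls and 0.650 under ENZ, and of 1.31 and 0.662 without these clusters. Ccl5, a chemokine, had ratios of 0.727 in controls and 1.87 under ENZ. Without these clusters its control ratio was 1.06 (0.894 to 1.26) and its ENZ ratio 2.48, and 32.8% of its control members' UMIs came from 1 cell.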

How the results depend on the processing

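The number of Mmp12 macrophages was 449 in controls and 153 under ENZ, and with at least 10 Mmp12 UMIs it was 193 and 50. With at least 1 Mmp12 UMI the ENZ number was 252. The control share of C1q-positive macrophages was above the ENZ share under all 9 sets of thresholds. The Mgl2 ratio of the control library, 1.86, stayed above 1 under 16 alternatives (1.56 to 2.27). It was 1.59 with at least 1 and 2.27 with at least 10 Mmp12 UMIs, 1.68 with at least 10 C1q UMIs, 2.12 with each cell thinned to 2000 UMIs, 2.04 with CPM averaged over cells and 1.56 against comparison cells with Mrc1 only. The Clec4n ratio, 1.12, stayed above 1 under the same 16 alternatives and was 1.24 with at least 10 Mmp12 UMIs and 1.05 against cells with Mrc1 only. The count of 14 genes at least 2-fold higher was 6 with at least 1 and 33 with at least 10 Mmp12 UMIs, 25 in thinned cells, 82 with a minimum of 10 CPM and 2 with one of 200 CPM. The count of 36 genes at least 2-fold lower was 20 with at least 1 and 59 with at least 10 Mmp12 UMIs, 68 with comparison cells weighted to the members' depth, 56 against cells with Mrc1 only, 170 with a minimum of 10 CPM and 9 with one of 200 CPM. The cause of these changes was not tested, except that a lower CPM minimum measures more genes and a higher one fewer. Of the 25 genes named from the control library, 24 stayed on their side of 1 under 5 of 5 alternatives of weighting, thinning, free RNA, averaging and the highest cell, and Scd1 had a ratio of 1.77 without the cell with most UMIs. Without clusters 3, 6 and 9, which was added after seeing the data, Cfd, Car3 and Cma1, each with 4 UMIs or fewer, had ratios of 1.17 and Scd1 one of 2.61 (1.14 to 6.5), so that 4 genes crossed 1. No paired analysis was possible because each group is 1 library. Replicate error could not be measured, and genes near 50 CPM rest on few UMIs in the ENZ members.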
